A study of Homo sapiens with 9 samples.

Results

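MHC class I molecules display peptides on the cell surface, and 9 genes of this route were examined: the heavy chains HLA-B, HLA-C, HLA-E and HLA-F, the light chain B2M, the peptide transporter subunits TAP1 and TAP2, the loading factor TAPBP (tapasin) and the transcriptional activator NLRC5. They were taken by gene symbol, and all 9 were among the 21619 genes counted and among the 13458 with enough counts to test. The samples were 9 mammary fat pad tumours grown for 3 weeks in mice from MDA-MB-231, an established human triple-negative breast cancer line, here carrying the ribosomal protein L10a fused to EGFP. In 5 tumours (numbers 1, 6, 7, 10 and 15) mesenchymal stem cells (MSC) from human bone marrow went into the fat pad along with the cancer cells, at a ratio of 1 to 1, and in 4 (numbers 9, 11, 12 and 13) without them, each tumour from its own mouse. Ribosomes were captured through the EGFP tag from lysed whole tumours, so the counts are of RNA bound to the ribosomes of tagged cells plus any carry-over. Without total RNA of the same tumours here, a change in RNA abundance and a change in ribosome association cannot be told apart. All tumours carry the same tagged line, the labels give the tag for the cancer cells only, and they name neither the mouse strain nor its remaining immune cells nor the MSC donor.

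In the class I route, the proteasome cuts cytosolic proteins into peptides, the TAP1-TAP2 heterodimer pumps these into the endoplasmic reticulum, and tapasin holds an empty heavy chain and B2M next to the transporter until a peptide binds. HLA-B and HLA-C are polymorphic and present peptides to CD8+ T cells, whereas HLA-E mainly displays leader peptides of other class I molecules to the NKG2A receptor of natural killer cells. Interferon-gamma, in part through IRF1, and NLRC5, acting at a shared promoter module, are the known inducers of most of these genes.

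Most markers set for the line, though not all, were at the level set for them in all 9 libraries. VIM was at 6742 to 12520 CPM (counts scaled to a common library size, as edgeR's cpm gives them). CDH1, ESR1, PGR and FOXA1 were below 0.21 CPM in each library. Of the other markers set as low in this line, EPCAM reached 14.7 CPM, GATA3 9.89 and ERBB3 3.69. EGFR, set as high, was only at 7.20 to 21.3 CPM. Gene totals ran from 29749909 to 50639082 counts with MSC and from 24616792 to 65275226 without. The summed level of 12 fibroblast and MSC markers was 69.7 to 193 CPM with MSC and 49.5 to 69.4 without, with the highest sum in tumour 15, where DCN stood at 18.9 CPM against at most 0.207 in the others. The sum of 12 leukocyte markers was 139.7 to 209 CPM with MSC and 96.1 to 139.5 without, nearly all of it CD68 (88.4 to 202 CPM), a lysosomal protein that is not limited to leukocytes. CD3D, of the T cell receptor complex, was at 0 in every library, and PTPRC, the pan-leukocyte antigen CD45, was at 3.58 CPM in tumour 1 and at most 0.543 in the rest. The sum of 8 endothelial markers was 7.25 to 12.4 CPM with MSC and 10.3 to 13.7 without. Cells of the mouse would be counted here only through mouse reads assigned to human genes, so these markers do not measure host leukocytes or endothelium. Carry-over of human MSC RNA cannot be told apart from RNA of the cancer cells in genes that both express, and fewer cells of a type cannot be told apart from less RNA per cell.

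HLA-E rose with MSC, and it was the only 1 of the 9 genes to pass the test. TAP1 and TAP2 had changes nearly as large but missed the threshold, HLA-B, HLA-C, B2M and TAPBP differed by less than 1 SE from no change, and the low-count NLRC5 and HLA-F did not pass either. The test was edgeR's quasi-likelihood test over all 13458 genes with Benjamini-Hochberg adjustment and a threshold of 0.05. It called 4.18% of all genes higher and 3.6% lower with MSC, against 1 and 0 of the 9. The log2 change (with MSC minus without) was above 0 for all 9, with a median of 0.28. Over all genes tested it was above 0 for 6883 of 13458, with a median of 0.01. Levels of some members were correlated over the tumours, such as HLA-B with HLA-C (Pearson r 0.892), so the 9 signs are not separate observations.

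**Figure D1:**
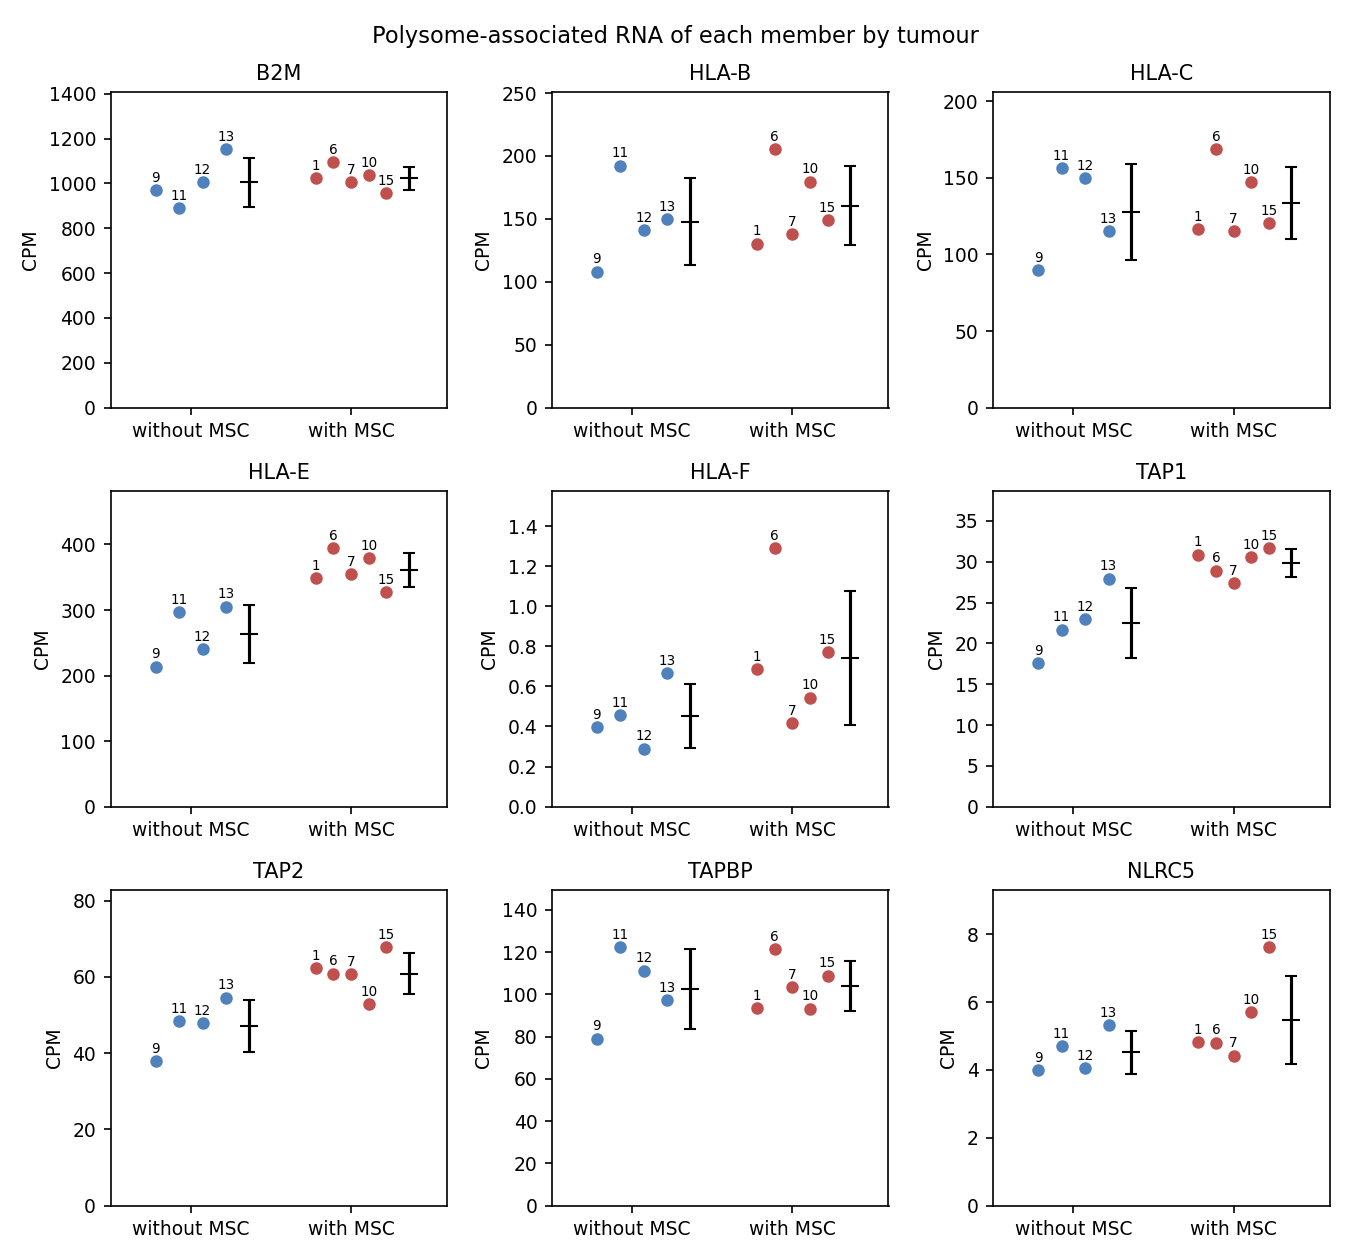
CPM of each gene in each tumour (points, labelled with the tumour number), without MSC in blue and with MSC in red, with the group mean and SD in black, each axis starting at 0. The HLA-E points with MSC (327 to 395 CPM) lie above all those without (214 to 305), while the B2M, HLA-B, HLA-C and TAPBP points of the groups overlap.

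Per length, the light chain B2M was the most abundant member, at a mean of 427 CPM per kilobase of annotated exon over the 9 tumours. The heavy chains HLA-E (122), HLA-B (97.7) and HLA-C (84.3) followed, then TAPBP (24.7), TAP1 (8.99), TAP2 (8.87), NLRC5 (0.740) and HLA-F (0.309). The ranges over tumours of HLA-E, HLA-B and HLA-C overlapped, as did those of TAP1 (5.93 to 10.7) and TAP2 (6.15 to 10.99), and of NLRC5 and HLA-F. The other steps in this order were larger than the spread between tumours: B2M was at least 374 CPM per kilobase in every tumour and HLA-E at most 152, and TAPBP was at least 18.8 and TAP2 at most 10.99. These levels use exon lengths of a later annotation than the one behind the counts, so they are approximate.

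**Figure D2:**
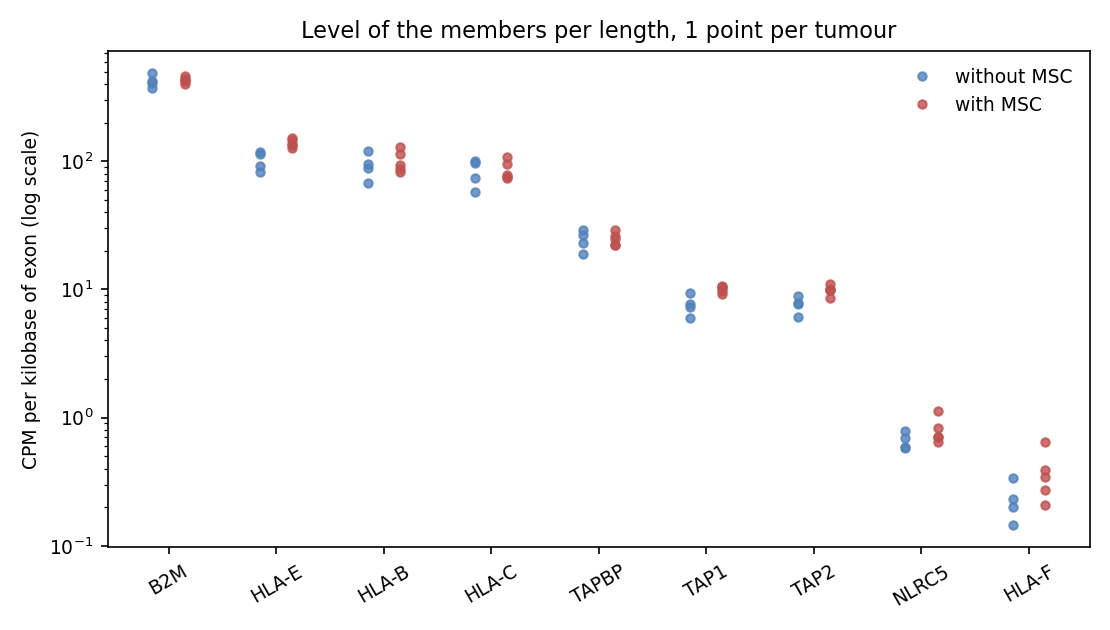
CPM per kilobase of annotated exon (log scale) for each gene, 1 point per tumour, blue without MSC and red with MSC, ordered by the mean over tumours. B2M lies at 374 to 485, the heavy chains HLA-E, HLA-B and HLA-C between 57.6 and 152, and HLA-F and NLRC5 near or below 1.

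HLA-E, the nonclassical heavy chain, was at 349, 395, 355, 379.5 and 327 CPM in tumours 1, 6, 7, 10 and 15 with MSC. In tumours 9, 11, 12 and 13 without MSC it was at 214, 296, 240.5 and 305 CPM. Every tumour with MSC was above every tumour without, a separation found in this direction for 5.13% of all genes tested. The means were 361 ± 26.5 CPM (SD, n = 5) and 264 ± 44.0 CPM (SD, n = 4), a log2 change of 0.45 ± 0.12 (SE; 1.37-fold, edgeR adjusted p = 0.0244). The call did not hold up against the loss of single libraries: it was lost in 6 of the 9 fits that left out 1 tumour, with adjusted p = 0.0593, 0.0618, 0.0517 and 0.0643 without tumours 1, 6, 7 and 10 and 0.0900 and 0.116 without tumours 9 and 12 (all edgeR). The size of the change stayed between 0.36 and 0.53 on the log2 scale in these fits, and without tumour 15, which had the highest fibroblast markers, it was 0.48 (edgeR adjusted p = 0.0228). Over all genes, 563 of 13458 were called higher in the fit to all tumours. Without tumours 1, 6, 7 and 10 the count was 260, 350, 407 and 285, and without tumours 9 and 12 it was 175 and 151. In the fits that kept the HLA-E call, without tumours 11, 13 and 15, it was 390, 985 and 432.

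The classical heavy chains HLA-B and HLA-C did not pass the test, and whether their changes differ from that of HLA-E was not tested. HLA-B was at 130.2, 206, 138, 179.6 and 149 CPM with MSC (tumours 1, 6, 7, 10, 15) and at 108, 192, 141 and 150 CPM without (tumours 9, 11, 12, 13). Tumours 6 and 11, 1 of each group, were the highest, and tumour 9 the lowest. The log2 change was 0.12 ± 0.15 (SE, edgeR adjusted p = 0.674). HLA-C was at 117, 169, 115, 147 and 120.4 CPM with MSC and at 89.5, 156, 149.7 and 115 CPM without. It ordered the tumours much as HLA-B did, with a log2 change of 0.07 ± 0.15 (SE, edgeR adjusted p = 0.826). Both estimates turned negative without tumour 9 (-0.006 and -0.0709), and that of HLA-C also without tumour 6 (-0.036) and after the correction for GC content and length (-0.0545). Across the 9 tumours the log2 CPM of HLA-B and HLA-C had a Pearson r of 0.892 (Spearman 0.8) as a description. With HLA-E, HLA-B had an r of 0.627 and HLA-C of 0.46, or 0.797 and 0.598 for deviations from the group means. The points share library preparation and depth, and the genes are close paralogs.

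The reference promoters of HLA-B and HLA-C are printed because these classical heavy chains had the highest correlation among the heavy chains, with the letters of short motifs in capitals. The motifs searched on both strands were AANNGAAA (the core bound by interferon regulatory factors), GGNNTTNCC (an NF-kB-like site), TGACG (a short site for CREB and ATF factors, as in the X2 box) and CCAAT (bound by NF-Y, as in the Y box). Each window holds the 250 bases before the RefSeq start site, 5′ to 3′ on the gene's strand, minus for both (GRCh38.p14). HLA-B is at chr6:31357180-31357429 and HLA-C at chr6:31272093-31272342.
HLA-B: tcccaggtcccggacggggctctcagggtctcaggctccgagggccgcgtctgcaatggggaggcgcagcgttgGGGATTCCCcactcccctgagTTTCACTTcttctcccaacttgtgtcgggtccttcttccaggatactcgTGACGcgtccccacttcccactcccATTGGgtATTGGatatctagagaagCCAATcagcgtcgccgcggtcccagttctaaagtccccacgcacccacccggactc
HLA-C: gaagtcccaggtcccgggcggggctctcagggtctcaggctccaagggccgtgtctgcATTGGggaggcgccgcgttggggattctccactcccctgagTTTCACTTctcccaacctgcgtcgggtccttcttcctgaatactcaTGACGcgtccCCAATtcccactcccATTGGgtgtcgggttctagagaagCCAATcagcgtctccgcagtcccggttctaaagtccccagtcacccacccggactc
Both windows hold an interferon regulatory factor core in the minus orientation (155 and 151 bases before the start), a TGACG (106 and 105 bases before) and CCAAT letters between the TGACG and the start, on either strand. HLA-C has 1 more CCAAT match farther upstream, at 192 bases. The NF-kB-like letters were found in HLA-B (176 bases before the start) and not in the HLA-C window. Of 35116 windows of this length in the table, 20.3% hold the interferon core, 15% the NF-kB-like letters, 21.2% TGACG, 32% CCAAT and 0.174% all 4. A match is a description of letters, not a measured binding site.

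HLA-F, a heavy chain of restricted surface expression, was barely detected, with 7 to 36 counts per library. It was at 0.685, 1.29, 0.416, 0.544 and 0.771 CPM with MSC (tumours 1, 6, 7, 10 and 15) and at 0.395, 0.458, 0.290 and 0.666 CPM without (tumours 9, 11, 12 and 13). The groups overlapped, tumour 6 was the highest of all, and the log2 change of 0.68 ± 0.55 (SE, edgeR adjusted p = 0.474) was 0.39 without that tumour. A difference was not detectable at this depth.

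Close paralogs share reads, which bears on all 4 heavy chains. In the reference transcripts, 2.54% of the 50-base windows of HLA-B, 6.71% of those of HLA-C, 5.13% of those of HLA-E and 1.7% of those of HLA-F also occur in transcripts of other genes, while B2M and NLRC5 share none. These shares hold for the reference alleles. The HLA alleles of this line differ from the reference, and reads lost or misassigned for that reason were not measured. Summed over the 4 heavy chains, counts were 596, 770.3, 608, 707 and 597 CPM with MSC (tumours 1, 6, 7, 10, 15) and 412, 645, 531 and 571 CPM without (tumours 9, 11, 12, 13). The groups overlapped, with tumour 11 above tumours 1, 7 and 15. HLA-E took 51.2 to 58.5% of these reads with MSC and 45.3 to 53.4% without.

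The light chain B2M, which pairs with every class I heavy chain, had close means in the groups. It was at 1023, 1095, 1006, 1037 and 956 CPM with MSC and at 969, 890.2, 1007 and 1154 CPM without (tumours in the same order as above). The highest and the lowest tumour were both without MSC. The means were 1023 ± 50.5 CPM (SD, n = 5) and 1005 ± 110.4 CPM (SD, n = 4), a log2 change of 0.03 ± 0.11 (SE, edgeR adjusted p = 0.914). The estimate was 0.19 after the GC and length correction (edgeR adjusted p = 0.265) and -0.0225 without tumour 11. The ratio of HLA-E to B2M counts was 0.341 to 0.366 with MSC and 0.221 to 0.333 without, so the groups did not overlap in this ratio. The ratio of HLA-E to HLA-B counts did overlap, at 1.92 to 2.68 with MSC and 1.54 to 2.03 without. Both ratios were described after their values were seen and were not tested.

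The reference promoter of B2M (GRCh38.p14, chr15:44711267-44711516, plus strand) is shown for comparison with the heavy chains. It holds all 4 motifs, as does the HLA-B window above.
B2M: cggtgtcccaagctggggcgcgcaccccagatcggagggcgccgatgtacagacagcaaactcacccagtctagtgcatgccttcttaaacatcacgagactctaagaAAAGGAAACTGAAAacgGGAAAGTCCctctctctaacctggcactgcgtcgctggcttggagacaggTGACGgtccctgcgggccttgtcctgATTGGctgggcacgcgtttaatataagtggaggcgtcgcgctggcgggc
It has a pair of interferon regulatory factor cores (142 and 136 bases before the start, overlapping by 2 bases), an NF-kB-like site (125 bases before), a TGACG (75 bases before) and a CCAAT box in the minus orientation (49 bases before).

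The transporter subunits TAP1 and TAP2 were both higher on average with MSC. TAP1 was at 30.9, 28.9, 27.4, 30.6 and 31.7 CPM in tumours 1, 6, 7, 10 and 15 with MSC. Without MSC, tumours 9, 11 and 12 had 17.6, 21.7 and 23.0 CPM and tumour 13 had 27.9, which is above tumour 7. The means were 29.9 ± 1.72 CPM (SD, n = 5) and 22.5 ± 4.27 CPM (SD, n = 4), a log2 change of 0.41 ± 0.13 (SE; 1.33-fold, edgeR adjusted p = 0.0570). TAP2 showed the same arrangement, with 62.2, 60.8, 60.7, 52.8 and 67.8 CPM with MSC (tumour 10 the lowest) and 37.96, 48.4, 47.9 and 54.5 CPM without (tumour 13 the highest). Its means were 60.9 ± 5.38 CPM (SD, n = 5) and 47.2 ± 6.85 CPM (SD, n = 4), a log2 change of 0.37 ± 0.12 (SE; 1.29-fold, edgeR adjusted p = 0.0550). For each of the 2 genes, 4 of the 5 tumours with MSC were above every tumour without. Both genes passed without tumour 13 (log2 0.53 and 0.45, edgeR adjusted p = 0.0115 and 0.0200), with DESeq2 (adjusted p = 0.0338 and 0.0330) and with a filter of 5 CPM (edgeR adjusted p = 0.0424 and 0.0406), and missed the threshold in every other alternative at 0.05. The largest adjusted p among the fits that left out 1 tumour was 0.169 for TAP1 and 0.166 for TAP2 (edgeR, without tumour 9).

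**Figure D3:**
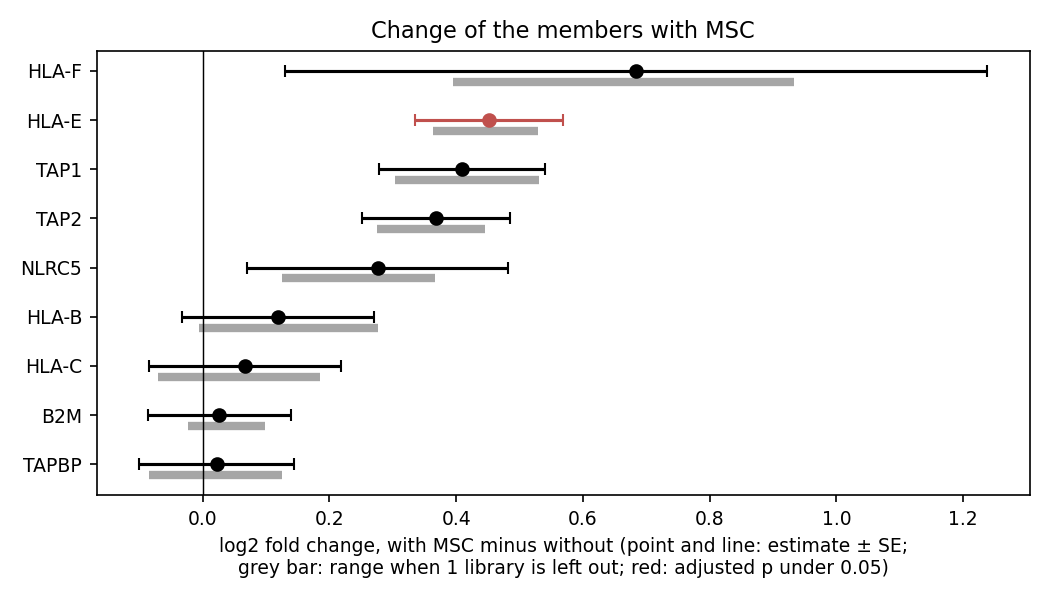
Log2 fold change of each gene, with MSC minus without, with its SE (points and lines, red where the adjusted p is under 0.05) and the range of the estimate when 1 library is left out (grey bars). The estimates of HLA-E (0.45), TAP1 (0.41) and TAP2 (0.37) are above those of HLA-B, HLA-C, B2M and TAPBP (0.02 to 0.12), but the SE and leave-one-out bars of HLA-B and TAP2 meet, and HLA-F has the widest error.

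The ratio of TAP2 to TAP1 overlapped between the groups. TAP2 counts were 1.73 to 2.22 times those of TAP1 with MSC and 1.95 to 2.23 times without. Their log2 CPM had a Pearson r of 0.917 (Spearman 0.867) over the 9 tumours, and 0.791 for deviations from the group means. The subunits work as a heterodimer and lie close together in the class II region of chromosome 6. Parts of their transcripts overlap other annotated genes: 35.8% of the 50-base windows of TAP2 also occur in transcripts of 2 other gene entries, and 456 bases of TAP1 exons overlap the antisense gene PSMB8-AS1. Whether the counting used strand is not given in the sources used here, so reads of TAP1 and PSMB8-AS1 may not have been told apart.

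The reference promoters of the transporter pair are printed because of this correlation and because both hold a doubled interferon core (GRCh38.p14, minus strand, TAP1 at chr6:32853705-32853954 and TAP2 at chr6:32838740-32838989).
TAP1: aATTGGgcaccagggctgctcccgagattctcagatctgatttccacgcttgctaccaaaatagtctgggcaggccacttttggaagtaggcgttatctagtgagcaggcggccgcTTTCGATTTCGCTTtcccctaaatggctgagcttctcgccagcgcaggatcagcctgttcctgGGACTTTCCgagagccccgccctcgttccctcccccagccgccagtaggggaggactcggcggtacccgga
TAP2: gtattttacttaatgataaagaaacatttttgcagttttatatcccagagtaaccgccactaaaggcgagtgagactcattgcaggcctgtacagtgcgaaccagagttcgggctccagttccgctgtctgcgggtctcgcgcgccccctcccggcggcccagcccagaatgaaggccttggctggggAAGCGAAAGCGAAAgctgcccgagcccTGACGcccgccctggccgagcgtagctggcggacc
In TAP1 the cores lie 134 and 128 bases before the start in the minus orientation, with an NF-kB-like site at 71 bases and a CCAAT match at the far end of the window (249 bases). In TAP2 they lie 62 and 56 bases before the start in the plus orientation, with a TGACG at 35 bases. The TAP1 window for a second, downstream start holds the NF-kB-like letters alone. TAPBP (chr6:33314079-33314328) also has a doubled interferon core, 18 and 12 bases before its start, along with NF-kB-like letters, and HLA-F has 1 interferon core. RefSeq entries were matched for 7 of the 9 genes, the others being HLA-E and NLRC5.

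The loading factor TAPBP was at 93.7, 121, 103, 93.2 and 109 CPM with MSC and at 79.0, 122.5, 111 and 97.3 CPM without, tumours 6 and 11 being the highest of their groups and tumour 9 the lowest of all. Its log2 change was 0.02 ± 0.12 (SE, edgeR adjusted p = 0.934), and its sign turned without tumours 6, 9 or 13 and after the GC and length correction (-0.10). Its order of tumours was closer to that of HLA-B (Pearson r 0.754 over 9 tumours) and HLA-C (0.815) than to that of TAP1 (0.247), as a description of levels. In the reference transcripts, 6.09% of the 50-base windows of TAPBP also occur in transcripts of 380 other genes.

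NLRC5, the class I activator, was low at 134 to 283 counts per library with MSC and 98 to 262 without. It was at 4.82, 4.81, 4.42, 5.70 and 7.62 CPM with MSC and at 3.98, 4.71, 4.05 and 5.33 CPM without, so the groups overlapped and tumour 15 stood highest. The log2 change was 0.28 ± 0.21 (SE, edgeR adjusted p = 0.432), or 0.13 without tumour 15, 0.08 without tumours 15 and 12 together and 0.0894 after the GC and length correction. Tumour 15 was also the tumour with the highest fibroblast and MSC marker sum (193 CPM), and the part of those cells in its NLRC5 level was not tested.

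The genes around these members in the route did not move as 1 block. Over all genes tested, 4.18% were called higher and 3.6% lower with MSC, the shares to set beside the calls in each list below. The estimate was above 0 for 6883 of the 13458 genes and below 0 for 6575, the counts to set beside the signs. A call of 1 gene in a short list says little about that list. For the 17 cofactors of peptide trimming and loading, all tested, 4 rose and 1 fell with a median log2 change of 0.16. The risers were endoplasmic reticulum proteins: the lectin chaperone calreticulin (CALR, 0.47 ± 0.13 SE, edgeR adjusted p = 0.0327), its membrane homologue calnexin (CANX, 0.40 ± 0.11, edgeR adjusted p = 0.0324), the glucosidase II subunit PRKCSH (0.72 ± 0.15, edgeR adjusted p = 0.00780) and the translocon channel SEC61A1 (0.45 ± 0.13, edgeR adjusted p = 0.0434). These serve glycoprotein folding and secretion in general as well as class I. CALR went from 480 ± 84.3 (SD, n = 4) to 666 ± 80.7 CPM (SD, n = 5) and in every tumour with MSC was above every tumour without, as were 5.13% of all genes tested. PDIA3, the disulphide isomerase of the loading complex, had a log2 change of 0.13 ± 0.12, and the trimming peptidases ERAP1 and ERAP2 had 0.19 ± 0.13 and -0.23 ± 0.24 (SE), none of them past the test. The faller was TPP2, a cytosolic peptidase (-0.49 ± 0.13 SE, edgeR adjusted p = 0.0267). The count of risers was 1 without tumours 6, 9, 10 or 12 and 2 without tumour 1. Over all genes, those fits called 350, 175, 285, 151 and 260 higher, in this order, of 13252 to 13632 tested. The fit to all tumours called 563 of 13458. TPP2 lost its call without tumours 1, 9, 10 or 12, and only PRKCSH among the 4 risers kept its call in all 9 fits.

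The immunoproteasome genes had estimates of the other sign. All 5 tested had a log2 change below 0 (median -0.33), and 1 passed, the PA28-beta activator subunit PSME2, which went from 201 ± 16.9 CPM (SD, n = 4) to 151.5 ± 17.3 CPM (SD, n = 5; log2 -0.41 ± 0.11 SE, edgeR adjusted p = 0.0258). PSME2 was lower in every tumour with MSC than in every tumour without, as were 4.87% of all genes tested, but its call was lost without tumours 1, 9, 10, 11 or 12. The catalytic subunits PSMB10 (-0.40 ± 0.16), PSMB9 (-0.33 ± 0.15) and PSMB8 (-0.17 ± 0.10) did not pass (edgeR adjusted p = 0.132, 0.178 and 0.297), nor did PSME1 (-0.05 ± 0.10). PSMB9 is the divergent neighbour of TAP1 and shares a bidirectional promoter with it. PSMB9 was at 32.3, 37.2, 48.4, 31.7 and 27.6 CPM with MSC and at 39.8, 44.6, 57.1 and 37.6 CPM without, so tumour 7 crossed into the other group. Counts of TAP1 per count of PSMB9 were 0.957, 0.777, 0.566, 0.964 and 1.15 with MSC and 0.442, 0.486, 0.402 and 0.743 without. The ratio was chosen after its values were seen and was not tested.

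Of 17 transcription factors that act at class I promoters or control them, 0 passed in the edgeR test reported here (5 at an unadjusted p under 0.05), 12 were below 0, and the median log2 change was -0.17. Other settings called some lower: 3 with DESeq2, 2 with the filter of 5 CPM or without tumour 13, and 1 with DESeq2 size factors, after thinning or without tumour 7. Over all genes, DESeq2 called 790 of 13458 lower, the filter of 5 CPM 574 of 9877 and the fit without tumour 13 863 of 13482. With DESeq2 size factors it was 475 of 13458, after thinning 465 of 12999 and without tumour 7 329 of 13244. IRF2, a factor of the interferon core, came closest (-0.40 ± 0.12 SE, edgeR adjusted p = 0.0515), with every tumour with MSC (17.5 to 24.1 CPM) below every tumour without (25.3 to 30.1 CPM). Such a separation in this direction was found for 4.87% of all genes tested. IRF2 passed with DESeq2 (adjusted p = 0.0209) and in edgeR with DESeq2 size factors (0.0493), the filter of 5 CPM (0.0414), thinning (0.0484) and without tumour 7 (0.0489). The X box factor RFX5 had -0.19 ± 0.11 and IRF1 -0.27 ± 0.13 (SE), also not past the test. EZH2, a repressive chromatin enzyme, had -0.36 (edgeR adjusted p = 0.0560). Of 21 interferon-gamma signalling genes and targets, 17 were tested and 1 passed, the kinase JAK1, which fell (-0.35 ± 0.10 SE, edgeR adjusted p = 0.0451) but lost the call in 8 of the 9 fits without 1 tumour. The T cell chemokines CXCL9, CXCL10 and CXCL11 were below 1 CPM in all libraries and were not tested.

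**Figure D4:**
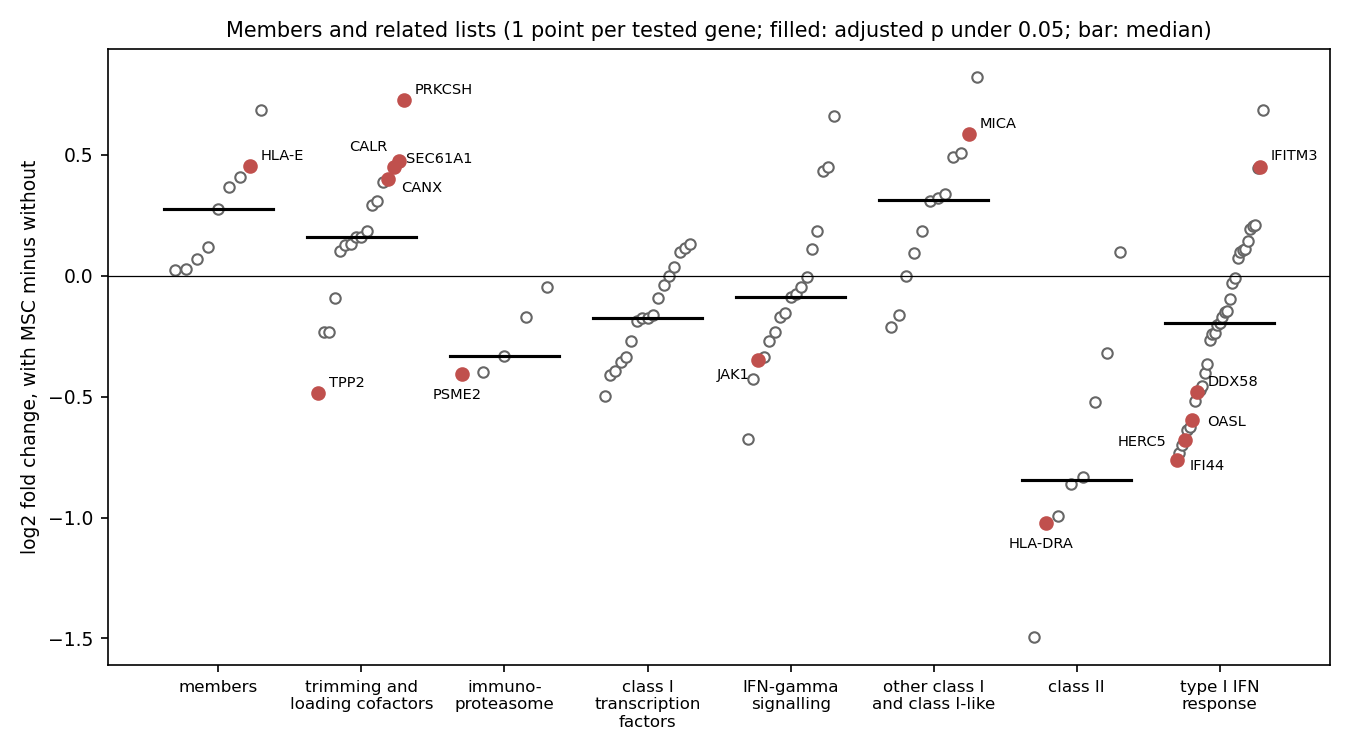
Log2 fold change (with MSC minus without) of every tested gene of the 9 members and of 7 related lists, sorted within each list, filled red where the adjusted p is under 0.05, with the list median as a bar. The median is 0.28 for the members, 0.16 for the loading cofactors and 0.31 for other class I and class I-like genes, and -0.33 for the immunoproteasome, -0.85 for class II and -0.20 for type I interferon response genes.

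Other class I and class I-like genes included 12 tested of 17 in the table. Of these, 1 rose: MICA, a stress-induced ligand of the NKG2D receptor of natural killer and CD8+ T cells, which was at 66.3, 72.4, 55.5, 57.0 and 57.3 CPM with MSC and at 34.3, 46.9, 39.4 and 43.7 CPM without (log2 0.59 ± 0.12 SE, edgeR adjusted p = 0.00745). The groups did not overlap, a separation found in this direction for 5.13% of all genes tested, and the call held in all 9 fits without 1 tumour. MICB, its close paralog, had 0.18 ± 0.11 (SE, edgeR adjusted p = 0.318), and the 2 can share reads.

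Class II genes, which present peptides to CD4+ T cells, mostly had estimates below 0. Of 12 listed, 8 could be tested, 7 of them had a change below 0 (median -0.85), and 1 passed, the alpha chain HLA-DRA, which fell (DESeq2 called 2). HLA-DRA was at 4.88, 6.53, 4.84, 8.93 and 5.65 CPM with MSC (tumours 1, 6, 7, 10, 15) and at 12.9, 12.3, 15.6 and 9.43 CPM without (tumours 9, 11, 12, 13). No tumour with MSC reached any without, as for 4.87% of all genes tested, and the log2 change was -1.02 ± 0.20 (SE, edgeR adjusted p = 0.00578), called in all 9 fits without 1 tumour. Of the 8 class II genes tested, 4 separated in this way. The others were HLA-DRB1, HLA-DPA1 and HLA-DMB, at no more than 3.64 CPM in any library, and did not pass in the reported fit. The invariant chain CD74 had -0.32 ± 0.13 (SE, edgeR adjusted p = 0.148). Tumour 12, the highest for HLA-DRA and CD74 (82.7 CPM), was also the highest for the leukocyte markers LYZ (2.85 CPM against 0.564 to 2.04 in the others), CD14 (1.20 against 0.0912 to 0.752) and CD79A (1.08 against 0.0456 to 0.659). It was the lowest for CSF1R (1.82 CPM) and had PTPRC at 0, while tumour 1, the highest for PTPRC, was among the lowest for HLA-DRA. Reads were counted on human genes and the tumours grew in mice, so mouse leukocytes would enter only through mouse reads assigned to human genes. Whether such reads were removed is not given, and the part of leukocytes in these levels was not tested.

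Of the 35 type I interferon response genes tested, 4 fell and 1 rose (median -0.20), beside 3.6% and 4.18% of all genes tested. The fallers were IFI44 (-0.76 ± 0.14), the ligase of the ISG15 modifier HERC5 (-0.68 ± 0.14), OASL (-0.60 ± 0.15) and the RNA sensor DDX58 (-0.48 ± 0.12, all SE, edgeR adjusted p = 0.00403, 0.00844, 0.0228 and 0.0242), and the riser was the membrane protein IFITM3 (0.45 ± 0.12 SE, edgeR adjusted p = 0.0293). IFITM3 has close paralogs and lost its call without any 1 of 7 tumours. DDX58 no longer passed without tumours 1, 9, 10 or 12, each left out alone (edgeR adjusted p up to 0.103), and after the GC and length correction (0.0570). OASL did not pass without tumours 9 or 11 (edgeR adjusted p = 0.0878 and 0.0561), and IFI44 and HERC5 passed in all 9 such fits. The 2 lists of interferon genes had medians below 0, and all 9 members had estimates above 0. The estimates of HLA-B, HLA-C, B2M and TAPBP were within 1 SE of 0 and changed sign in some alternatives. The members were chosen with earlier results known, and whether the members and these lists differ was not tested.

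The genes whose levels followed TAP1 and HLA-E most closely were found among 6424 genes with a mean of at least 20 CPM, by Pearson r of log2 CPM over the 9 tumours. For HLA-E they were P4HB (0.991), NUCB1 (0.984), PIGT (0.974), TMED9 (0.970) and KISS1 (0.967). For TAP1 they were ELOVL1 (0.983), CEBPB (0.969), MBOAT7 (0.966), COL4A2 (0.964) and LOXL2 (0.959). These are the highest values among all genes compared over few tumours, and they include the group difference: 9 of the 10 genes were called higher with MSC, the exception being CEBPB (edgeR adjusted p = 0.114). TAP1 itself had an r of 0.857 with HLA-E, or 0.602 for deviations from the group means.

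**Figure D5:**
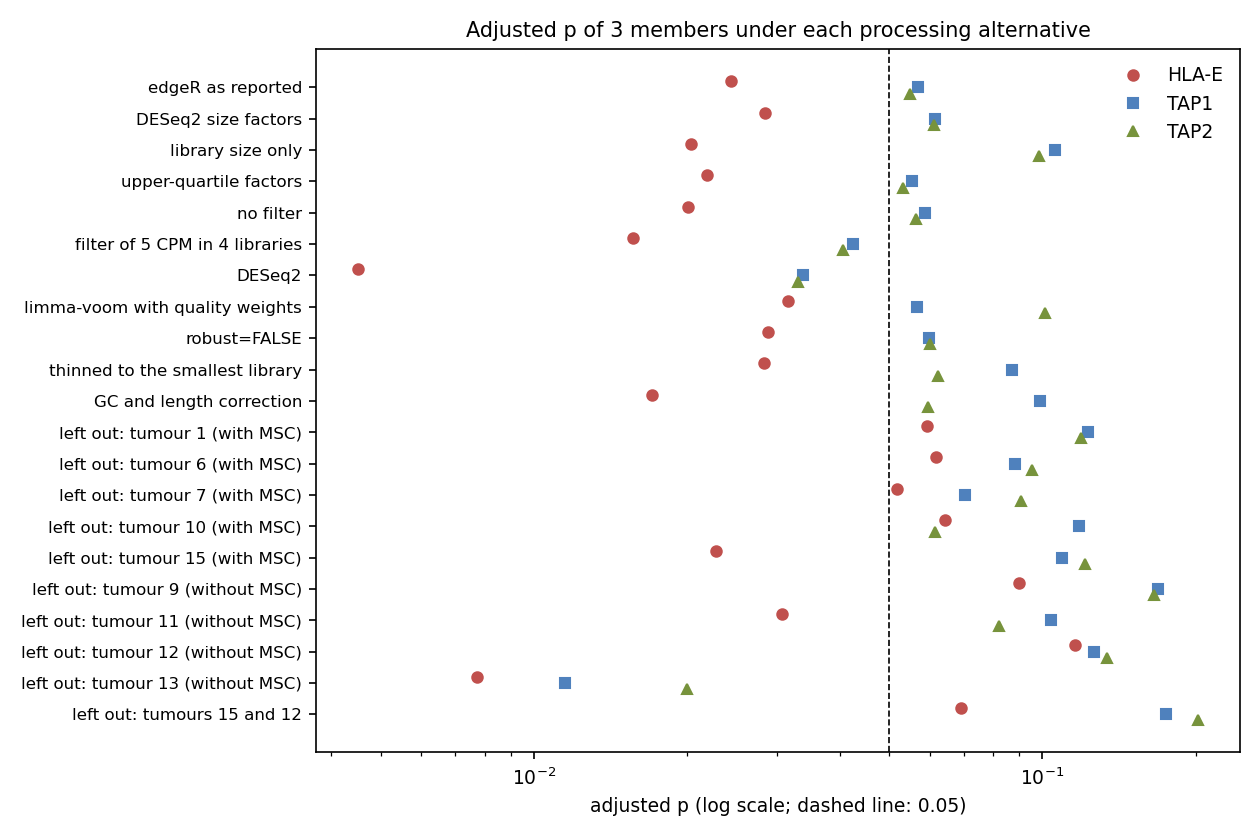
Adjusted p (log scale) of HLA-E (circles), TAP1 (squares) and TAP2 (triangles) under the reported edgeR fit and 20 alternatives, with the 0.05 threshold dashed. HLA-E lies left of the line in 14 of the 21 fits, and TAP1 and TAP2 in 3 each.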

How the data were processed

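The 9 libraries (5 tumours with MSC, 4 without) were sequenced from ribosome-bound RNA after a TruSeq poly-A library preparation, per the labels' protocols. The deposited files hold raw counts per gene symbol. For them, the submitters' processing notes list HTSeq, TopHat 1.4.0, CASAVA 1.8.1 and build hg19, without their roles. Neither annotation nor strand setting nor any removal of mouse reads is given in the sources used here. Lines that name no gene took 10.2 to 12.1% of all counts and were left out.

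Counts were fitted with edgeR 4.0.16 in R 4.3.3 over all genes: filterByExpr, TMM factors, glmQLFit with robust=TRUE, then a quasi-likelihood test, calling genes at a Benjamini-Hochberg adjusted p under 0.05. SE is the log2 change divided by the square root of F. Alternatives included DESeq2 1.42.0, limma-voom (limma 3.58.1), other scalings and filters, thinning to 24616792 counts, splines on GC content and length (GENCODE 29, with values for 88.3% of tested genes) and leaving out libraries. No 2 libraries of a group agreed within sampling noise (chi-square per degree of freedom at least 23.2). P-values measure the spread between mice.

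On simulated counts for this comparison (13246 genes), 36 of 63 genes with a 1.5-fold change passed, as did 53 of 67 at 2-fold, 63 of 64 at 4-fold and 12 of 13052 without a change.

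The members and gene lists were chosen with earlier results of these data known. Named are all members, list genes past the threshold and the gene of smallest p in each list, and the 5 genes closest to TAP1 and HLA-E. Others were chosen after their values were seen. Exon lengths are unions of GENCODE 29 exons (GRCh38). Values of some list genes are not reported here.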

Additional observations from a re-analysis of the deposited data

Results flagged for a closer look

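The highest and lowest tumour of 68 groups of values were set against the rest of the group by their gap to the nearest tumour over the range. Chance flags about 1 in 20 groups, and 2 stood out. OASL, an interferon-induced gene, was at 10.1 CPM in tumour 7 with MSC, against 14.6 to 15.8 CPM in the other 4 tumours with MSC. HLA-B took 29.8% of the reads of the 4 heavy chains in tumour 11 without MSC, against 26.3 to 26.5% in the other 3 tumours without MSC. No cause of either was tested.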

How the results depend on the processing

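The count of members called higher was 1, and 3 (HLA-E, TAP1 and TAP2) with DESeq2, a filter of 5 CPM or an adjusted p threshold of 0.10. It was 0 without tumours 15 and 12 together and 0 to 3 when 1 library was left out. Calls over all genes moved with the setting too. The reported fit called 563 of 13458 genes higher, DESeq2 856 of 13458 and the filter of 5 CPM 652 of 9877. Without tumours 15 and 12 together it was 201 of 13517. With 1 library left out it ran from 151 of 13632 (without tumour 12) to 985 of 13482 (without tumour 13). The count of members called lower was 0 in every alternative. HLA-E lost its call without tumours 15 and 12 together (log2 0.44) and had 0.36 to 0.53 with 1 library left out. TAP1 gained the call with a filter of 5 CPM (0.41), DESeq2 (0.40) and the threshold of 0.10 (0.41), and TAP2 likewise (0.37, 0.36 and 0.37). With 1 library left out they ranged from 0.30 to 0.53 and from 0.28 to 0.45. The GC and length correction turned HLA-C (-0.0545) and TAPBP (-0.10) and moved NLRC5 from 0.28 to 0.0894 and B2M from 0.03 to 0.19. Leaving out 1 library gave -0.0709 to 0.19 for HLA-C, -0.0848 to 0.13 for TAPBP, -0.006 to 0.28 for HLA-B and -0.0225 to 0.10 for B2M. No cause of these shifts was tested. The filter of 5 CPM removed HLA-F and NLRC5, so they have no value there. Of the 15 list genes named by rule, HERC5, HLA-DRA, IFI44, MICA and PRKCSH kept their calls in all 21 alternatives, and none of the 15 changed sign in any. No paired analysis was possible because the groups share no replicate numbers. Depth limits HLA-F, with 7 to 36 counts per library.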
